A study of Mus musculus with 4 samples.

Results

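The genes described here are 10 genes of fat cells and lipid droplets, out of 23337 gene symbols counted in lymphatic endothelial cells of the mouse embryo: Adipoq, Cfd, Car3, Aoc3, Plin1, Plin4, Pnpla2, Lpl, Fabp4 and Pparg. They were selected on measured values: the counts of Adipoq, Car3 and Aoc3 differed between the cultured genotypes. The genotype difference after culture is therefore given as a description and supports nothing. All 10 had counts in all 4 libraries.

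The groups were wild type cells and cells homozygous for a deletion, each taken from embryos at day 14.5 and each measured before and after culture, with 1 library per group. All embryos of 1 litter were pooled within a genotype. The first sort kept cells positive for LYVE1, a lymphatic hyaluronan receptor, and VECAD, the endothelial cadherin, and negative for CD45, a leukocyte marker. Part of that sort was lysed at once, and the rest spent 7 days on OP9 feeders, stromal cells of mouse that support blood formation, with FLT3L, IL3 and SCF at 100 ng/ml each. Cells positive for LYVE1 and VECAD were then sorted once more, and the labels state no CD45 exclusion at that point. The libraries before and after culture of a genotype therefore share their source, and both genotypes met the same feeder cells and cytokines. OP9 cells are themselves from mouse, so their RNA could not be distinguished by species. The site of the deletion is not in the labels.

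Fat cells store triglyceride in droplets whose surface is coated by perilipins, and release it again through a chain of lipases. Their identity is driven by PPARG, a nuclear receptor that pairs with RXR proteins and turns on genes of lipid uptake, storage and secretion. Several of these genes are not private to fat: FABP4, PPARG and the fatty acid transporter CD36 are known in capillary endothelium, AOC3 (vascular adhesion protein 1) lies on endothelium and smooth muscle, and LPL works on the capillary wall. ADIPOQ, the hormone adiponectin, and PLIN1 are the members most closely tied to mature fat cells.

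Gene counts totalled 1694669 to 7943587 per library. The 15 endothelial genes of a marker list were all above the background described next in every library, and Prox1, the lymphatic homeobox factor, had 2526, 4483, 284 and 459 counts. Pdpn, the lymphatic glycoprotein podoplanin, had 435, 915, 0 and 8 counts and was not detected in the cultured wild type library. Here and below, 4 values in a row belong to wild type and mutant before culture, then to wild type and mutant after culture. Background was read from 1407 olfactory and vomeronasal receptor genes, which are normally silent outside sensory neurons; they held 6.64, 8.33, 0.536 and 1.62 counts for each kb that they code. Levels are CPM, which are counts relative to library size, scaled by the trimmed mean of M values (TMM). A fold is a ratio of 2 levels with its 95% interval in parentheses, which covers counting error only. A call of higher or lower needed the whole interval beyond 2-fold and at least 20 counts in 1 of the 2 libraries. Of 8 lymphatic markers, Prox1, Pdpn, Mmrn1 and Reln were called lower after culture in both genotypes. Lyve1 was called higher in both, and Flt4 in wild type cells. Of all genes, 8.17% in wild type and 5.19% in mutant cells were called higher, and 4.34% and 3.46% lower. The summed lymphatic culture folds were 0.992 (0.971 to 1.01) in wild type and 0.882 (0.868 to 0.895) in mutant cells. In pooled cells, fewer cells of a type and less RNA per cell cannot be told apart.

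Promoter windows of 300 bases, from 250 before to 50 after the start of a gene, were found in RefSeq (GRCm38.p6) for 6 of the 10 genes. Car3, Aoc3, Fabp4 and Lpl had no entry. The windows of Adipoq, Plin1 and Plin4 are printed 5′ to 3′ on the strand of each gene, because Plin1 was the gene nearest to Adipoq in profile over the 4 libraries, and Plin4, the other perilipin, was not among the 5 nearest. Capitals mark matches to CCAAT and GATAA, with ATTGG being CCAAT read on the opposite strand.
Adipoq (chr16:23146286-23146585, plus strand): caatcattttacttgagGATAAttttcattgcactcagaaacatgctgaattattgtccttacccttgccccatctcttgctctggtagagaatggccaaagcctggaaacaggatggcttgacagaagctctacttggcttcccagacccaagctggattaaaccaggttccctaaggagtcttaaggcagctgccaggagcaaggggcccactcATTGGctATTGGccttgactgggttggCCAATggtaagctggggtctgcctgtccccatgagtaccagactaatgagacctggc
Plin1 (chr7:79732727-79733026, minus strand): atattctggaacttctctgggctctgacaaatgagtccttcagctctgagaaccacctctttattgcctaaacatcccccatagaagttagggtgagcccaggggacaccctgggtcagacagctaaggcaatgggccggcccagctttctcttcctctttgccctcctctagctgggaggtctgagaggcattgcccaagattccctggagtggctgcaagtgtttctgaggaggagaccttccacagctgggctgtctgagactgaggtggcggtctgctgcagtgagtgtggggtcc
Plin4 (chr17:56109733-56110032, minus strand): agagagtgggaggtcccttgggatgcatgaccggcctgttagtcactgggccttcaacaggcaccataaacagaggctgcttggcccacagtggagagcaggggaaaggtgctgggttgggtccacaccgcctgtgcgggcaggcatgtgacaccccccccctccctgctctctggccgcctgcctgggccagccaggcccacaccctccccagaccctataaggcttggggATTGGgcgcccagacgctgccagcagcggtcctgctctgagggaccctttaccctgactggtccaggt
The Adipoq window held 3 matches to CCAAT and 1 to GATAA, the Plin4 window held 1 match to CCAAT, and the Plin1 window held neither. The nuclear receptor site AGGTCA, its direct repeat with a single base between the copies, which overlaps it, and the TATA box TATAAA were searched as well, on both strands, and none was found in these windows. Over 32851 promoter windows, CCAAT was present in 37.4%, GATAA in 25.4%, AGGTCA in 16.3%, TATAAA in 13.6% and the direct repeat in 0.0396%. The 3 windows of Pparg held AGGTCA in 2 cases, and the windows of Cfd and Pnpla2 held no match. These matches describe letters in a short window and were not measured as binding sites.

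Before culture the 10 genes were low, and the genotypes were close. Summed over the 10, the level was 147.7 CPM in wild type and 147.8 CPM in mutant cells, with a fold of 1.0 (0.914 to 1.10). None of the 10 was called between genotypes, where 0.0634% of 18934 genes tested were, with 0.0158% above and 0.0475% below the wild type. The interval held 1 for 8 genes, lay above 1 for Pnpla2 and lay below 1 for Fabp4, against 17.6% of all genes above 1 and 8.54% below. The median log2 fold of the 10 was 0.00, and that of all genes tested was 0.04.

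Per kb of exon, Fabp4, a carrier of fatty acids in the cytosol, led the order in all 4 libraries. Its level before culture was 42.1 CPM per kb (36.3 to 48.6) in the wild type library, ahead of Pnpla2 at 16.0 (13.9 to 18.3). Lpl, Pparg, Car3, Adipoq and Cfd followed at 6.44 to 3.05 CPM per kb in the wild type library, and the intervals of neighbours in that stretch overlapped. Aoc3, Plin1 and Plin4 stood last at 1.37, 0.985 and 0.868 CPM per kb. These 3 genes and Cfd did not exceed the 95th percentile of the receptor genes per kb in either library before culture, whereas the other 6 did. For Plin1 the counts were 0.74 and 0.96 times those expected from the background in wild type and mutant cells, and for Plin4 0.65 and 1.04 times. Neither perilipin could thus be told from background before culture. After culture all 10 genes were above the 95th percentile in both libraries.

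**Figure D1:**
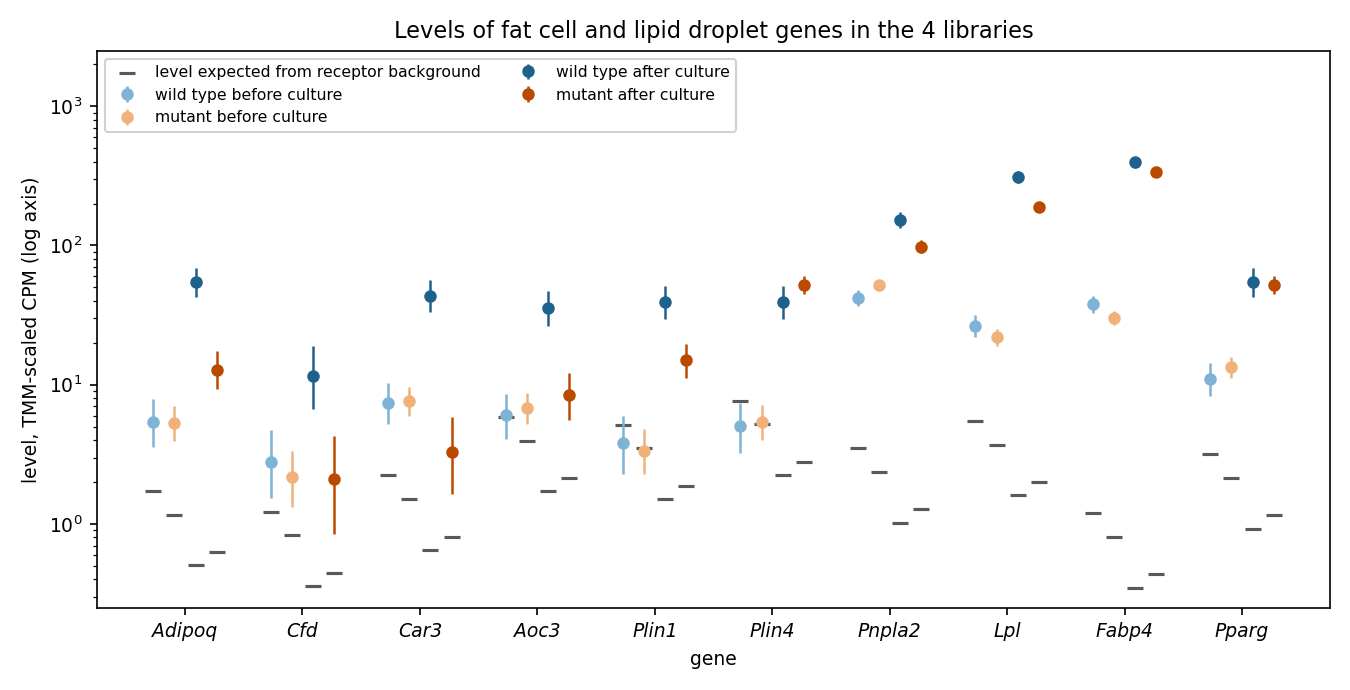
Levels of the 10 genes in the 4 libraries, in TMM-scaled CPM on a log axis, with exact Poisson 95% counting intervals; the short dashes mark the level expected from the receptor background. Each point is 1 library. Before culture the intervals of Plin1 hold their dashes, as do those of Plin4 in mutant and Aoc3 in wild type cells. The interval of Plin4 in wild type cells before culture lies below its dash. All 10 genes lie above their dashes after culture.

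Adiponectin and adipsin are proteins that fat cells secrete into the blood. Adipoq (chr16:23146536-23158028, plus strand; mm10, as for all gene positions here) had 27, 49, 75 and 43 counts, or 5.42, 5.32, 54.6 and 12.9 CPM. The wild type library after culture was the highest of the 4, and its interval (42.9 to 68.4) did not overlap that of the cultured mutant library (9.31 to 17.3). The mutant to wild type fold was 0.982 (0.602 to 1.63) before culture and 0.236 (0.158 to 0.347) after it. Cfd (chr10:79890853-79892655, plus strand), the serine protease adipsin of the complement system, had 14, 20, 16 and 7 counts, or 2.81, 2.17, 11.6 and 2.09 CPM. Its fold after culture was 0.180 (0.0626 to 0.462), but neither cultured library reached 20 counts and the gene was not tested there. Both genes were thus highest in the cultured wild type library, on few counts for Cfd.

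Car3 and Aoc3 encode enzymes that are abundant in mature fat. Car3 (chr3:14863512-14872523, plus strand), a carbonic anhydrase also found in skeletal muscle, had 37, 70, 60 and 11 counts, or 7.43, 7.60, 43.7 and 3.29 CPM. It had the lowest mutant to wild type fold of the 10 after culture, 0.0754 (0.0357 to 0.145), after 1.02 (0.678 to 1.57) before it. The cultured mutant library was also below both libraries before culture, which no other called gene of the set showed. Aoc3 (chr11:101330605-101341938, plus strand), an amine oxidase of the cell surface, had 30, 63, 49 and 28 counts, or 6.02, 6.84, 35.6 and 8.37 CPM. Its fold was 1.14 (0.724 to 1.82) before culture and 0.235 (0.142 to 0.381) after it. The Aoc3 counts before culture were 1.03 and 1.72 times the expected background, so its fold there says little about the gene itself.

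The perilipins differed from each other. Plin1 (chr7:79720218-79732903, minus strand), which guards the large droplet of fat cells, had 19, 31, 54 and 50 counts, or 3.81, 3.36, 39.3 and 15.0 CPM. Its fold after culture was 0.381 (0.254 to 0.570), lower in the mutant library but not wholly beyond 2-fold. Plin4 (chr17:56100591-56109803, minus strand), a coat of nascent droplets, had 25, 50, 54 and 174 counts, or 5.02, 5.43, 39.3 and 52.0 CPM. It was the 1 gene of the 10 with a fold above 1 after culture, 1.32 (0.971 to 1.83), and the interval held 1. Both perilipins thus stood at 39.3 CPM in the cultured wild type library and apart in the cultured mutant library. An exon of Plin4 overlaps Hdgfl2 on the opposite strand, and the strand setting of the counting is not given in the sources used here, so its counts are uncertain.

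Among the lipases, Pnpla2 (chr7:141455198-141460743, plus strand), the lipase that starts triglyceride breakdown on the droplet, had 209, 476, 210 and 328 counts, or 41.9, 51.7, 153 and 98.1 CPM. Its mutant to wild type fold was 1.23 (1.04 to 1.46) before culture and 0.642 (0.538 to 0.767) after it. Lpl (chr8:68880491-68907448, plus strand), the lipase that frees fatty acids from circulating triglyceride, had 132, 203, 425 and 635 counts, or 26.5, 22.0, 309 and 190 CPM. Its fold was 0.832 (0.665 to 1.04) and 0.614 (0.542 to 0.696), respectively. Both lipases were lower in the cultured mutant library by less than 2-fold, and neither was called.

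The fatty acid carrier and the nuclear receptor were the 2 members closest between the cultured genotypes. Fabp4 (chr3:10204088-10208576, minus strand) had 188, 277, 542 and 1121 counts, or 37.7, 30.1, 394 and 335 CPM, the highest counts of the 10 in both cultured libraries. Its fold was 0.797 (0.660 to 0.964) before culture and 0.850 (0.767 to 0.944) after it. Pparg (chr6:115360951-115490399, plus strand) had 55, 123, 75 and 175 counts, or 11.0, 13.4, 54.6 and 52.3 CPM. Its fold was 1.21 (0.873 to 1.69) before and 0.959 (0.728 to 1.27) after culture, and both intervals held 1. The isoforms of Pparg are not resolved by counts per gene.

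Over the set, 3 of the 9 genes tested after culture were called lower in the mutant library, namely Adipoq, Car3 and Aoc3, and none higher. Of all 12309 genes tested, 0.0731% were called lower, 0.065% higher and 0.138% in either direction, and nothing is read from this contrast because it chose the genes. The median log2 fold of all 10 was -1.05, and that of all genes tested was 0.00. The summed level was 1134.9 CPM in wild type and 769.1 CPM in mutant cells, which gave a fold of 0.678 (0.636 to 0.722). Over the main scaling and 5 alternatives, background subtraction included, the fold of Adipoq ranged from 0.227 to 0.258, that of Car3 from 0.061 to 0.0825 and that of Aoc3 from 0.195 to 0.257.

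**Figure D2:**
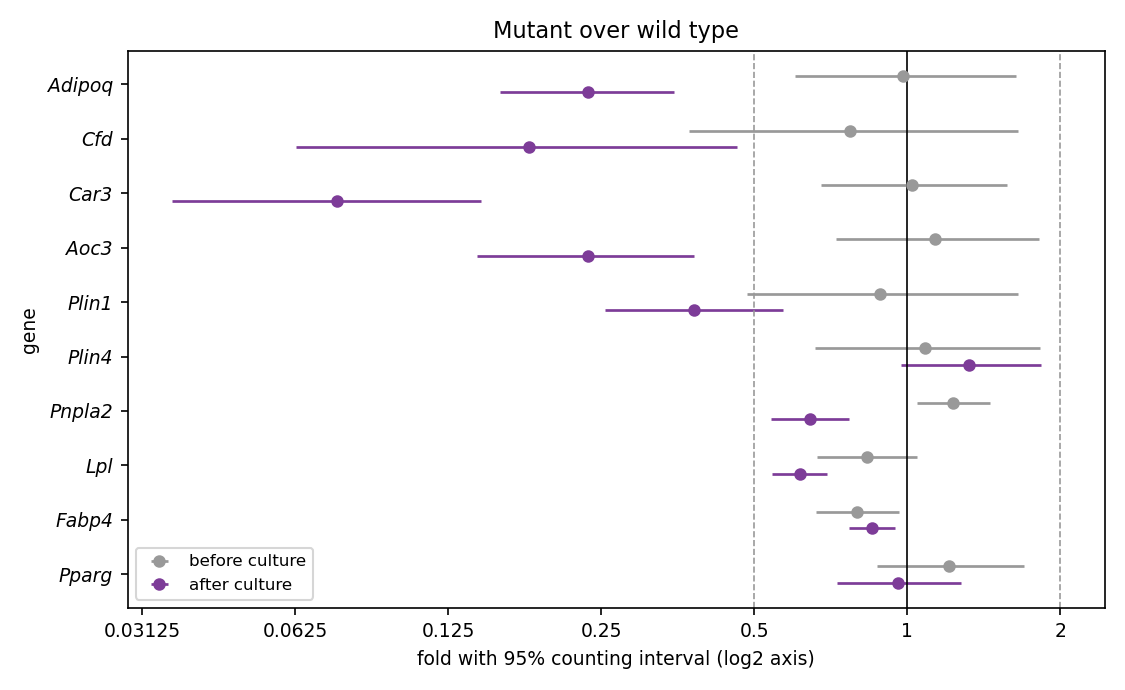
Mutant over wild type folds of the 10 genes before culture (grey) and after culture (purple), on a log2 axis, with 95% counting intervals from 1 library per group; dashed lines mark 2-fold either way. Before culture the interval of Pnpla2 lies above 1 and that of Fabp4 below 1, and the others hold 1. After culture the intervals of Adipoq, Car3, Aoc3 and Cfd lie wholly below the lower dashed line, and Cfd had too few counts to be tested.

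The genotype fold after culture divided by that before culture states how far the genotypes parted during culture. This ratio uses the cultured libraries that chose the genes, so it too is a description. It was 0.0736 (0.0346 to 0.157) for Car3, 0.207 (0.109 to 0.391) for Aoc3, 0.233 (0.0759 to 0.714) for Cfd, 0.240 (0.132 to 0.438) for Adipoq and 0.431 (0.217 to 0.859) for Plin1. The lipases stood at 0.521 (0.411 to 0.661) for Pnpla2 and 0.738 (0.574 to 0.949) for Lpl. The interval held 1 for Pparg, Fabp4 and Plin4, at 0.793, 1.07 and 1.22. Among 18949 genes, 14.8% had an interval below 1 and 5.43% above 1. With the receptor background subtracted, and 3 counts as the least value, the ratio was 0.0462 for Aoc3, 0.764 for Plin1 and 2.93 for Plin4, all of which start from a wild type level at background.

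Culture itself went with higher levels of most of the set. In the wild type pair of libraries, all 9 genes tested were called higher after culture, where 8.17% of 17154 genes were called higher, 4.34% lower and 12.5% either way. The cultured wild type library of this pair is one of those that chose Adipoq, Car3 and Aoc3, and Plin1 reached 20 counts only there, so their calls are a description. Cfd, with at most 16 counts in either library of that pair, was not tested. Lpl rose 11.7-fold (9.58 to 14.3), Fabp4 10.5-fold (8.84 to 12.4), Plin1 10.3-fold (6.01 to 18.4), Adipoq 10.1-fold (6.41 to 16.3) and Plin4 7.83-fold (4.79 to 13.1). Aoc3 rose 5.92-fold (3.68 to 9.66), Car3 5.88-fold (3.84 to 9.11), Pparg 4.94-fold (3.44 to 7.13) and Pnpla2 3.64-fold (2.99 to 4.43). All 10 folds stayed above 1 under every scaling tried. Pnpla2 was lowest at 1.21 (0.994 to 1.47) on the sum of the endothelial list, where its interval held 1. The interval of Cfd on that scaling, at 1.38 (0.629 to 3.04), held 1 as well. The median log2 fold of the 10 was 2.77, and that of all genes tested was -0.05.

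In the mutant pair, 5 of the 10 genes were called higher after culture, and none lower, where 5.19% of 18807 genes were called higher, 3.46% lower and 8.65% either way. Fabp4 rose 11.1-fold (9.77 to 12.8), Plin4 9.59-fold (6.96 to 13.4), Lpl 8.62-fold (7.35 to 10.1), Plin1 4.44-fold (2.78 to 7.20) and Pparg 3.92-fold (3.09 to 4.98). The other 5 were not called. Adipoq had a fold of 2.42 (1.57 to 3.72), Pnpla2 of 1.90 (1.64 to 2.19) and Aoc3 of 1.22 (0.755 to 1.94), and on the endothelial scaling these were 0.948, 0.745 and 0.480, with the direction turned. Cfd had a fold of 0.964 (0.345 to 2.37). Car3 had a fold of 0.433 (0.207 to 0.823), which stayed below 1 under every scaling, and was called lower on the endothelial one. The median log2 fold of the 10 was 1.62, and that of all genes tested was -0.10. The wild type and mutant culture folds of Fabp4, Plin4, Lpl, Pparg, Plin1 and Cfd overlapped in their intervals. Those of Adipoq, Car3, Aoc3 and Pnpla2 did not. Adipoq, Car3 and Aoc3 were chosen on the cultured libraries, so their gap is a description. The share of all genes without overlap was not computed. As a related measure, the ratio of the 2 culture folds had an interval below 1 for 14.8% of 18949 genes and above 1 for 5.43%.

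The size of the culture folds depends on the scale. Scaling to total gene counts moved every log2 culture fold by -0.62 in wild type and -0.45 in mutant cells, and scaling to the summed endothelial list by -1.59 and -1.35, since that list itself stood 3.01-fold (2.95 to 3.07) and 2.55-fold (2.52 to 2.58) higher after culture. On the endothelial scale, Adipoq, Fabp4 and Lpl were still called higher in wild type and Plin4, Fabp4 and Lpl in mutant cells. The 4 libraries also differed in the share of read pairs in no gene, from 66.5% and 53.6% before culture to 19.996% and 30.3% after it. The share not aligned went the other way, from 21.4% and 34.1% to 67.6% and 56.2%. Gene counts made up only 7.94%, 8.79%, 9.94% and 10.5%. With the receptor background subtracted, Aoc3 and Plin4 were no longer called in wild type cells, nor Plin1 and Plin4 in mutant cells. Fewer than 3 counts above background then remained before culture for these genes and for Plin1 in wild type cells, too few for a subtracted fold to be read.

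**Figure D3:**
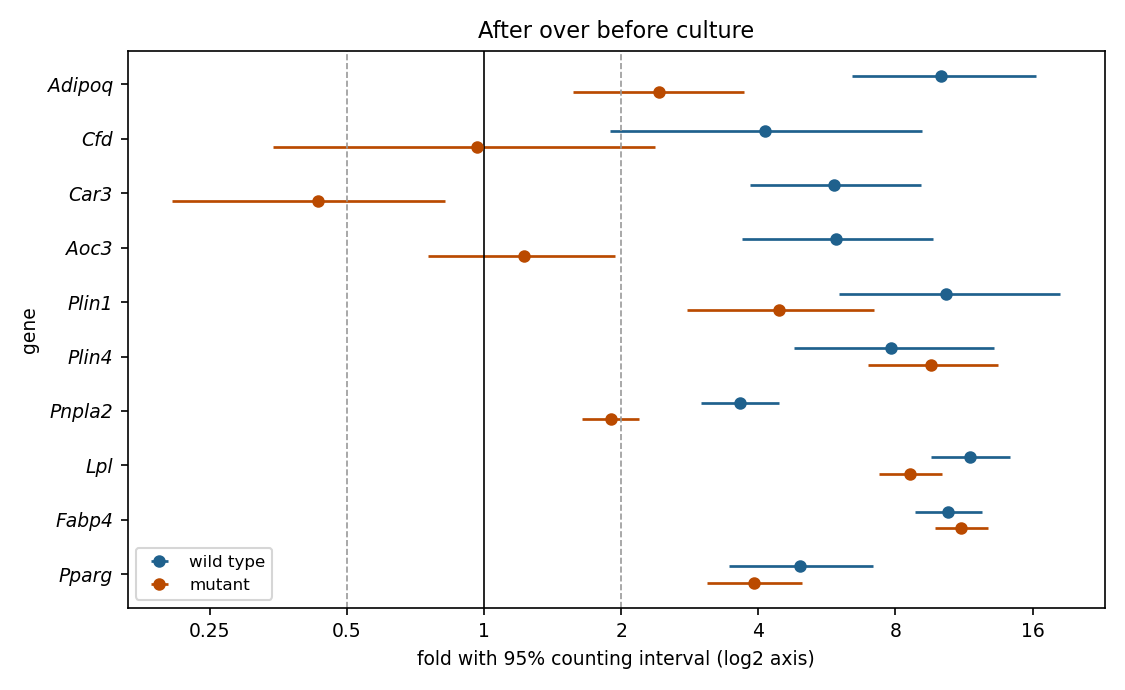
After over before culture folds of the 10 genes in wild type (blue) and mutant (orange) cells, on a log2 axis, with 95% counting intervals from 1 library per group; dashed lines mark 2-fold either way. The intervals of the genotypes do not overlap for Adipoq, Car3, Aoc3 and Pnpla2, and Car3 lies on opposite sides of 1. Adipoq, Car3 and Aoc3 were chosen on the cultured libraries, so their gap is a description. On the endothelial scaling the mutant folds of Adipoq, Aoc3 and Pnpla2 also fall below 1.

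Other markers of mature fat were not called between the cultured genotypes. Only 0.138% of all genes tested were called there, so the absence of a call in a short list says little. Of 18 further fat cell markers, 7 had enough counts to be tested between the cultured genotypes and none was called, with a median log2 fold of -0.12. Their summed level was 159.3 CPM in wild type and 119.3 CPM in mutant cells, which gave a fold of 0.749 (0.633 to 0.887), and Thrsp had no counts in the wild type library. Gpd1, which makes the glycerol backbone of triglyceride, had 31, 80, 43 and 53 counts and a fold of 0.507 (0.332 to 0.776) after culture. Npr3, a clearance receptor of natriuretic peptides, had 126, 247, 65 and 104 counts and a fold of 0.658 (0.478 to 0.911). Acvr1c, an activin receptor of fat cells, had 93, 136, 10 and 35 counts and a fold of 1.44 (0.697 to 3.26). Gpd1 was the 1 gene of this list called higher with culture, by 5.03-fold (3.10 to 8.25) in wild type cells. Of all genes tested, 8.17% were called higher there. None of the list was called in mutant cells, where 8.65% of all genes were called either way.

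Of the 18 fat cell markers, 3, 7, 8 and 6 were above the 95th percentile of the receptor genes per kb, and in the cultured wild type library these were Cidec, Lipe, Adig, Sncg, Npr3, Aqp7, Pck1 and Gpd1. The next 4 genes were picked after their values were seen and describe only themselves. Leptin (Lep) had 40, 71, 1 and 17 counts, resistin (Retn) 18, 22, 1 and 6, and Cidec, a fusion protein of fat droplets, 19, 28, 6 and 6. Lipe, the hormone-sensitive lipase that follows PNPLA2 in the cascade, had 62, 102, 44 and 47 counts and a fold of 0.439 (0.285 to 0.678) after culture. None of these 4 genes exceeded the 95th percentile of the receptor genes per kb in either library before culture. After culture Lipe did in both libraries and Cidec in the wild type one. Of 9 brown fat markers, the thermogenic protein gene Ucp1 had 36, 57, 2 and 4 counts. Prdm16, a regulator of brown fat that is also known in endothelium, was the 1 brown fat marker tested after culture, at a fold of 2.92 (1.45 to 6.68) and not called.

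No other gene of the lipid pathway was called between the cultured genotypes. With 0.138% of all genes called there, this absence says little. None was called between genotypes among 8 other droplet proteins tested, 10 genes of lipolysis, 10 of the LPL pathway, 10 of fatty acid uptake and 13 of triglyceride synthesis. The summed folds of these lists were 1.04 (0.937 to 1.15), 0.902 (0.828 to 0.985), 0.947 (0.888 to 1.01), 0.802 (0.768 to 0.837) and 0.866 (0.814 to 0.923), in that order. Cd36, the fatty acid transporter of the cell surface, had 368, 531, 1709 and 3088 counts and a fold of 0.743 (0.700 to 0.788) after culture. Fabp5, a relative of Fabp4, had 271, 602, 527 and 1033 counts and a fold of 0.806 (0.725 to 0.897). Both intervals overlapped that of Fabp4 (0.767 to 0.944). Cd36 and Fabp5 together held most of the counts of the fatty acid uptake list, so its summed fold largely restates theirs.

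With culture, several partners of the 10 genes rose in both genotypes. Cd36 rose 16.8-fold (15.0 to 18.9) in wild type and 16.0-fold (14.6 to 17.6) in mutant cells, and Fabp5 7.05-fold (6.08 to 8.19) and 4.73-fold (4.27 to 5.24). Gpihbp1, which carries LPL across the capillary wall, rose 5.32-fold (3.59 to 7.95) and 3.11-fold (2.36 to 4.11). Plin2, the perilipin of most cell types, rose 4.39-fold (3.20 to 6.03) and 4.0-fold (3.23 to 4.97), and Lipa, the acid lipase of lysosomes, 3.77-fold (3.05 to 4.67) and 3.83-fold (3.3 to 4.45). In wild type cells 3 of 12 genes of fatty acid uptake, 3 of 13 of the LPL pathway, 2 of 12 droplet proteins, 1 of 12 of lipolysis and 1 of 17 of triglyceride synthesis were called higher. In mutant cells the counts were 3 of 14, 1 of 14, 2 of 14, 1 of 12 and 0 of 17. Of all genes tested, 8.17% were called higher in wild type and 5.19% in mutant cells. Calls lower made up 4.34% and 3.46%. Several of the list counts lie near or below these shares, so nothing is read from them. The 1 list gene called lower in wild type cells was the droplet enzyme Hsd17b13, and in mutant cells Fabp7, Slc27a1 and Mogat2 were called lower.

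No transcription factor of fat formation was called between the cultured genotypes, where only 0.138% of all genes tested were. Over the 21 tested, of which Prdm16 is 1, the median log2 fold was 0.03. The summed fold over all 23 factors of the list was 1.03 (0.97 to 1.09). Among 12 other known targets of PPARG, 8 were tested after culture and none was called, with a median log2 fold of -0.31. The summed fold of all 12 was 0.756 (0.720 to 0.794). Cd36 held most of the counts in that sum, so the sum largely restates the fold of Cd36. With culture, Ppard, the relative of Pparg, rose 4.39-fold (3.34 to 5.79) in wild type and 4.49-fold (3.80 to 5.32) in mutant cells. Rxra, the partner receptor, rose 2.67-fold (2.19 to 3.26) in wild type cells and had a fold of 2.05 (1.79 to 2.35) in mutant cells. Pdk4, a PPAR target that spares glucose, rose 4.83-fold (3.23 to 7.28) and 4.06-fold (3.03 to 5.47). Dlk1, which restrains fat formation and marks precursors, fell to 0.155 (0.106 to 0.220) and 0.122 (0.100 to 0.146) times its level. Ebf2, a factor of committed precursors, also fell in both genotypes, from 118 and 251 counts to 7 and 20. The receptors of adiponectin had smaller wild type culture folds than the hormone gene: Adipor1 had folds of 3.0 (2.64 to 3.41) and 2.17 (1.98 to 2.37), and Adipor2 of 2.71 (2.28 to 3.21) and 2.06 (1.83 to 2.33), each called in wild type cells only by the 2-fold rule and the difference not tested.

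No relative of the 10 genes was called between the cultured genotypes, where only 0.138% of all genes tested were. Of 27 paralogues and neighbours, 14 were tested, with a median log2 fold of -0.20. Car2, another carbonic anhydrase, had 66, 120, 157 and 321 counts and a fold of 0.840 (0.692 to 1.02) after culture, beside 0.0754 for Car3. Aoc2, which lies beside Aoc3, had 34, 69, 12 and 30 counts; it was looked up after its values were seen. With culture, Car2 rose 8.62-fold (6.43 to 11.7) and 7.37-fold (5.96 to 9.17), and C1qtnf1, a relative of adiponectin, 9.03-fold (6.67 to 12.4) and 9.19-fold (7.45 to 11.4). In mutant cells Car2 thus rose while Car3 did not.

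Some mast cell genes were also lower in the cultured mutant library. Of 9 mast cell markers, 4 were tested after culture and 3 were called lower in the mutant library, against 0.0731% of all genes, but these 3 reached 20 counts only in the wild type library, so nothing is read from the count. Cpa3, a carboxypeptidase of mast cell granules, had 72, 239, 68 and 5 counts and a fold of 0.0302 (0.00951 to 0.0740). Cma1 and Mcpt4, both chymases, had 40 and 30 counts in the cultured wild type library and 7 and 8 in the mutant library, with folds of 0.0719 (0.0272 to 0.162) and 0.11 (0.0434 to 0.245). Kit, the receptor of SCF, which other blood cells and some endothelium also bear, had 307, 608, 86 and 317 counts and a fold of 1.52 (1.19 to 1.95). With culture, Cpa3 and Mcpt4 were called higher in wild type cells. In mutant cells Cpa3, Cma1 and Hdc, which makes histamine, were called lower. The summed mast cell level was 114.6, 139.6, 189.2 and 110.9 CPM, and Ms4a2 was at 0 in the cultured wild type library. The part of mast cells in the values of the 10 genes was not tested.

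Among markers of other cells, no gene was called between the cultured genotypes, where only 0.138% of all genes tested were. This held for 11 tested stromal genes, 7 precursor genes of fat, 4 macrophage genes, 7 smooth muscle and pericyte genes and 15 endothelial genes. The summed folds, each over the whole list whether tested or not, were 0.882 (0.842 to 0.924), 1.10 (1.02 to 1.2), 1.3 (1.16 to 1.47), 1.15 (1.06 to 1.26) and 0.913 (0.898 to 0.929), in that order. Before culture the summed stromal level was 3550 CPM in wild type and 5597 CPM in mutant cells, which gave a fold of 1.58 (1.55 to 1.60). After culture the stromal sum was 0.536 (0.515 to 0.559) times its level in wild type and 0.300 (0.292 to 0.308) times in mutant cells. The stromal chemokine gene Cxcl12 went the other way, with rises of 18.7-fold (15.8 to 22.4) and 13.9-fold (12.5 to 15.6), and of the 15 stromal genes Dpt was at 0 in both cultured libraries and Lum in the wild type one. The part of stromal cells, the feeder line included, in the culture folds was not tested.

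**Figure D4:**
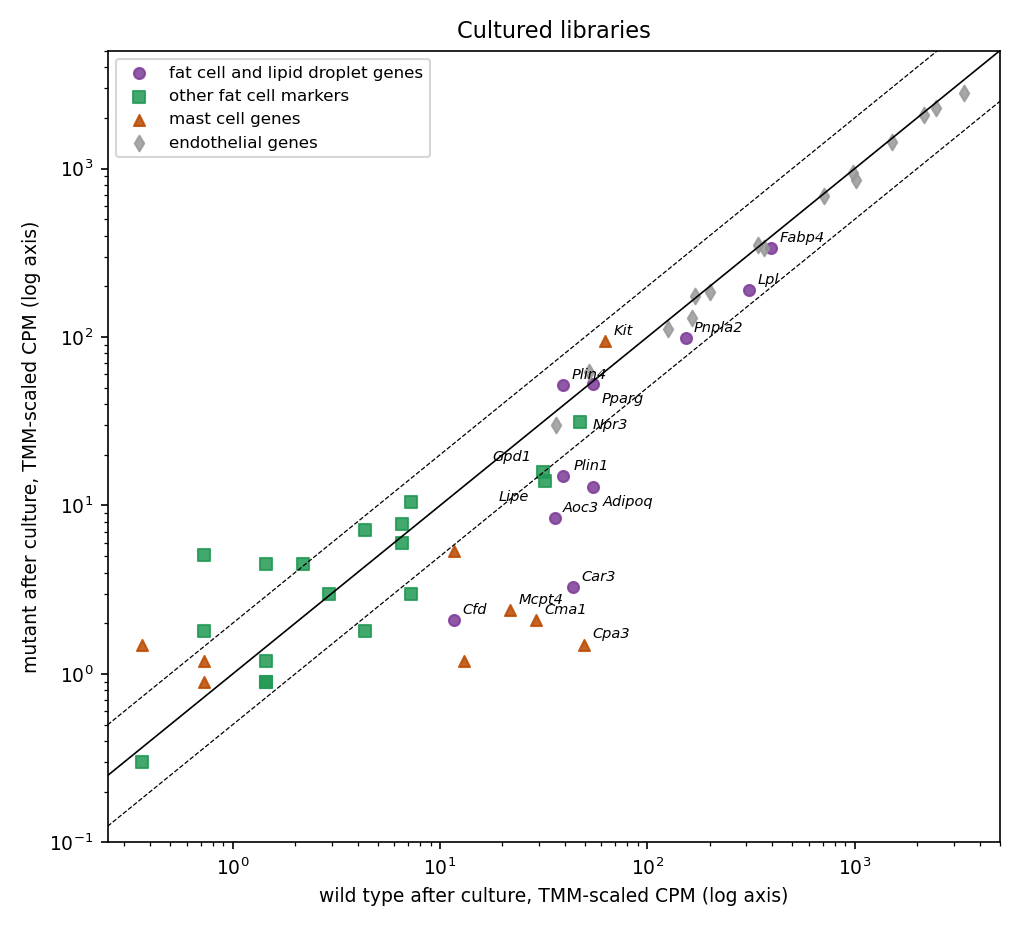
Levels in the cultured mutant library against the cultured wild type library, in TMM-scaled CPM on log axes, for the 10 genes, 18 other fat cell markers, 9 mast cell genes and 15 endothelial genes; each point is 1 gene and a count of 0 is drawn at 0.5 counts. The solid line marks equal levels and the dashed lines 2-fold; Adipoq, Car3, Aoc3, Plin1, Cfd, Lipe, Cpa3, Cma1, Mcpt4 and Tpsb2 are among the genes below the lower dashed line, and the endothelial genes lie along the solid line.

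Likeness of profile was measured as the Euclidean distance between centred log2 levels over the 4 libraries, among 15533 genes, and is given as a description. The gene nearest to Adipoq was Plin1, at a distance of 0.63, followed by Ly6e at 0.67 and Tst at 0.79. Nearest to Car3 were the mast cell genes Mcpt4 at 0.46 and Tpsb2 at 0.57, then Cfd at 0.99. Nearest to Aoc3 were Tst at 0.25, Dusp19 at 0.51, Car5b at 0.55 and Cfd at 0.59. Within the set the closest pair was Fabp4 and Lpl, at 0.35, and the next were Aoc3 with Cfd and Adipoq with Plin1.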

How the data were processed

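RNA was measured in 4 libraries of pooled mouse cells, made with a stranded low-input kit from total RNA and sequenced as paired 75 nt reads (labels' protocols). The authors deposited raw counts per gene symbol; bcl2fastq, STAR, HTSeq 0.11.2 and mm10 come from the submitters' processing notes, and for the annotation and strand setting the sources used here give nothing. The 5 HTSeq summary classes were kept out. Counts were scaled with TMM in edgeR 4.0.16 (R 4.3.3). Levels carry exact Poisson intervals and folds Clopper-Pearson intervals, computed with scipy 1.17.1, at a confidence level of 95%. The deposited counts are named as deduplicated with sambamba. The reads carry no molecular identifiers, so how fully copies of 1 molecule were removed is not known. Intervals cover counting error only. No group has replicates, so no p-value was computed. An additive fit of genotype and culture, with 1 residual degree of freedom, was left out.

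Exon lengths and gene positions came from GENCODE vM21 (GRCm38, the assembly of mm10), with 22852 symbols matched. A count of 0 was replaced by 3 counts in folds, and list medians and likeness used a prior count of 2. The members and gene lists were chosen with earlier results of these data known. Named genes are the 10 members, up to 3 called genes of each list or otherwise its 2 with most counts, and the 5 genes nearest in profile to Adipoq, Car3 and Aoc3. Outside this rule, and after their values were seen, Prox1, Pdpn, Thrsp, Lep, Retn, Cidec, Lipe, Adig, Sncg, Aqp7, Pck1, Ucp1, Fabp7, Slc27a1, Aoc2, Ms4a2, Dpt and Lum were named. Alternatives were DESeq2 1.42.0 size factors, total counts, the endothelial sum, pairwise TMM, background subtraction, no count minimum, a minimum of 50, 1.5-fold and 0 kept as 0. The procedure was run on simulated Poisson counts with known folds. These held no spread between libraries, so the run checks the arithmetic and not the calls made from 1 library per group.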

Additional observations from a re-analysis of the deposited data

Results flagged for a closer look

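Car3 had culture folds on opposite sides of 1 in the genotypes: 5.88 (3.84 to 9.11) in wild type and 0.433 (0.207 to 0.823) in mutant cells. Pnpla2 had genotype folds on opposite sides of 1 before and after culture: 1.23 (1.04 to 1.46) before and 0.642 (0.538 to 0.767) after. Each value rests on 1 library per group, and the difference was not tested. Car3 was also among the genes chosen on the cultured libraries.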

How the results depend on the processing

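No paired analysis was possible because each comparison holds 1 pair of libraries; an additive fit over all 4, which could use the shared source of a genotype, was left out. No direction of a called member reversed. All 40 member folds stayed within their interval under DESeq2 size factors and under TMM from 2 libraries, while 9 left it with total counts, 10 with background subtracted and 19 on the endothelial sum. After culture, 3 members were called lower in the mutant library under each scaling and with background subtracted, 4 with no count minimum (Cfd joined), 2 with a minimum of 50 counts (Aoc3 left) and 4 at 1.5-fold (Plin1 joined). In wild type culture, the members called higher went from 9 to 3 on the endothelial sum (Adipoq, Fabp4 and Lpl). In mutant culture they went from 5 to 3 on the endothelial sum (Plin4, Fabp4 and Lpl) and to 3 with background subtracted (Fabp4, Lpl and Pparg), and those lower from 0 to 1 (Car3) on the endothelial sum. The cause of these changes was not tested.

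Over all genes, calls higher in the mutant before culture went from 3 to 1 on the endothelial sum and 49 at 1.5-fold. Calls lower there went from 9 to 17 with total counts, 18 on the endothelial sum, 18 with no minimum, 3 with a minimum of 50 and 70 at 1.5-fold. After culture, calls higher in the mutant went from 8 to 14 with total counts, 22 on the endothelial sum, 5 with background subtracted, 3 with a minimum of 50, 87 at 1.5-fold and 30 with 0 kept as 0. Calls lower there went from 9 to 4 with a minimum of 50 and 38 at 1.5-fold. For wild type culture, calls higher went from 1401 to 516 with total counts, 144 on the endothelial sum, 869 with background subtracted and 2862 at 1.5-fold, and calls lower from 745 to 2477, 8292 on the endothelial sum and 1759 at 1.5-fold. For mutant culture, calls higher went from 976 to 493 with total counts, 169 on the endothelial sum and 2257 at 1.5-fold, and calls lower from 651 to 1812, 8400 and 1681. Depth limits Cfd, with 7 to 20 counts per library. Levels of Plin1 and Plin4 before culture were not distinguishable from background at this depth.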
